A study of Mus musculus with 14 samples.

Results

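The 10 genes described here encode the enzymes that make fatty acids from acetyl-CoA and the transcription factors that switch those enzymes on. They were chosen by name (Acaca, Acacb, Fasn, Acly, Scd1, Scd2, Elovl5, Elovl6, Srebf1 and Mlxipl) out of 24354 gene symbols in an RNA-seq table of mouse quadriceps, and each had 1 entry there. The series studies the histone deacetylase HDAC3, the catalytic subunit of the NCoR and SMRT corepressor complexes, in skeletal muscle fuel metabolism, and holds 14 samples, of which the 6 RNA-seq libraries were used here. The mice compared were HDAC3 Knock-out (KO, 3 libraries) and HDAC3 Wild-type (WT, 3 libraries). All were male C57BL/6 mice (strain label C57B/6) aged 4 months, kept on normal chow and a normal light and dark schedule with no treatment, and quadriceps was taken at rest at ZT10, that is 10 hours after lights on. The labels give neither the deletion strategy nor the Cre driver, if one was used, nor whether replicates came from separate animals. The p-values therefore measure a spread between libraries that may be technical.

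In de novo lipogenesis ATP citrate lyase makes acetyl-CoA in the cytosol, acetyl-CoA carboxylase turns it into malonyl-CoA, and fatty acid synthase joins these units into palmitate, which elongases lengthen and stearoyl-CoA desaturases make monounsaturated. SREBP-1c, encoded by Srebf1, raises these genes in response to insulin and liver X receptor, and ChREBP, encoded by Mlxipl, does so in response to glucose. Muscle makes little fatty acid compared with liver and adipose tissue. There the malonyl-CoA made by the mitochondria-associated carboxylase encoded by Acacb chiefly restrains the entry of fatty acids into mitochondria for oxidation.

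Levels are FPKM (fragments per kilobase of gene, relative to the size of the library) from the authors' deposited table. Differences were tested with limma on log2(FPKM + 1) over the 10501 genes with a mean of at least 1 FPKM (two-sided, Benjamini-Hochberg adjusted, threshold 0.05), and the q-value from the authors' deposited table stands beside it. Log2 fold changes are KO over WT ± SE on that scale, on which low genes appear to change less than they do, and their intervals are at 95% confidence. Folds are ratios of mean FPKM. Hdac3 was at 5.51, 6.29 and 8.16 FPKM in KO libraries, against 33.3, 31 and 23.7 FPKM in WT libraries. The groups did not overlap, and Hdac3 fell by 1.99 ± 0.17 on the log2 scale (limma adjusted p = 0.00632). FPKM summed to 454359 to 495099 per library. Read numbers are not given, but from genes under 0.3 FPKM the depth of the KO libraries was 0.660 to 0.832 times that of WT replicate 1, and that of the other WT libraries 0.831 and 1.021 times. Low genes are thus measured less precisely in the KO. Markers of skeletal muscle fibres were abundant in every library (the 10 listed genes summed to 57897 to 71816 FPKM in KO and 58181 to 68837 FPKM in WT), and none was called by limma (0 of 10, and 0 before adjustment) or in the authors' deposited table.

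Of the 10 lipogenic genes, Acaca was higher and Mlxipl lower in KO muscle by the authors' deposited table, each with groups that did not overlap, and the other 8 were not called. Limma called 0 of the 9 members it tested (2 at an unadjusted p under 0.05). Elovl6 was too low to enter the limma fit. Over all genes limma called 3.65% of 10501 at the adjusted threshold and 19.7% before adjustment (11% higher and 8.68% lower in KO). The authors' deposited table called 10.8% of the 9204 genes it tested, 5.9% as higher and 4.94% as lower. The groups did not overlap for 26.1% of the genes in the limma fit, with KO above WT for 14.2% and below it for 11.9%. The 2 members without overlap, of 9, are near that background. The median log2 fold change of the 9 tested members was 0.16, with 6 above 0 and 3 below, beside a median of 0.0014 over all tested genes.

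**Figure D1:**
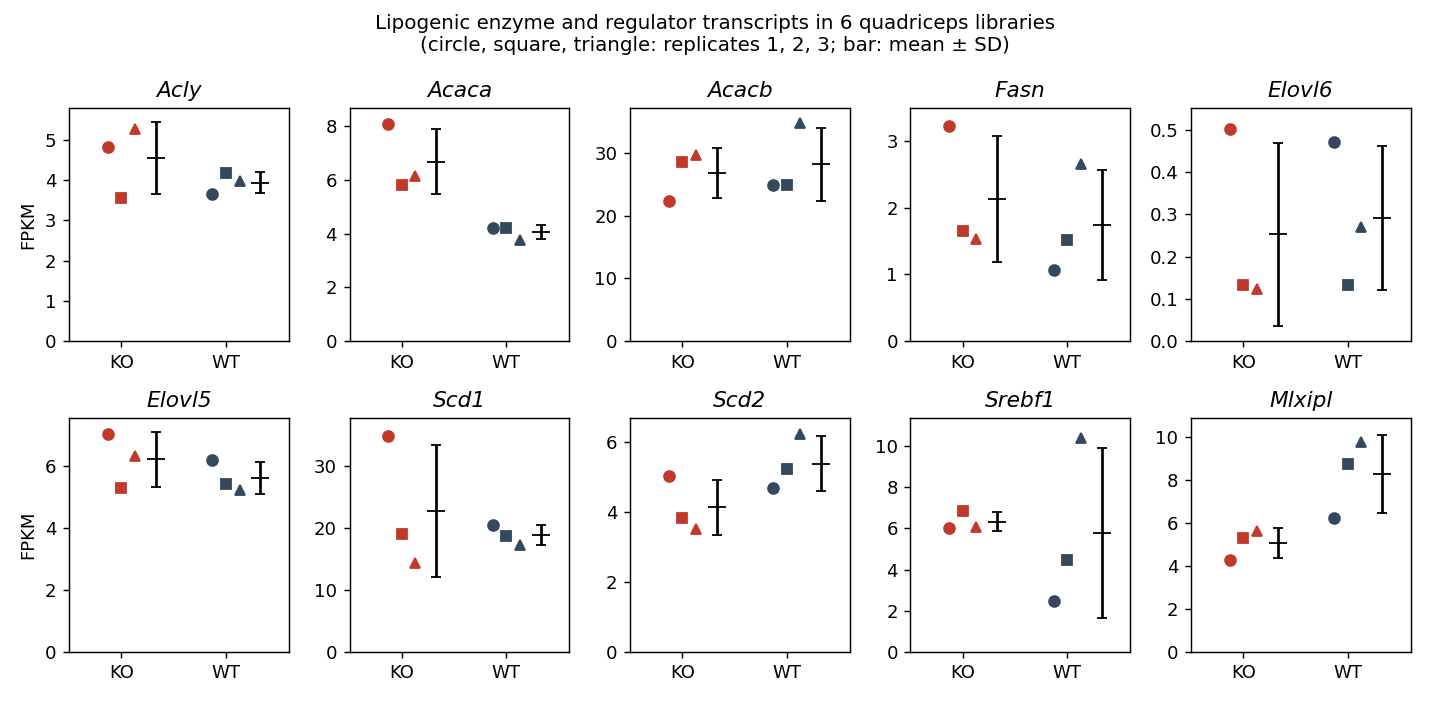
FPKM of the 10 members in each library on linear axes from 0, KO left of WT, with points for libraries and bars for the mean ± SD (n = 3). The KO libraries lie above every WT library for Acaca (5.82 to 8.05 against 3.76 to 4.21 FPKM) and below them for Mlxipl (4.27 to 5.63 against 6.24 to 9.78 FPKM), while the groups overlap for the other 8 genes.

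The members span a range of levels in which the muscle-type carboxylase and the desaturase lead. In KO muscle Acacb, at 26.8 ± 3.93 FPKM (SD, n = 3), and Scd1, at 22.8 ± 10.7, overlapped each other and lay above the rest. Acaca, Srebf1, Elovl5, Mlxipl, Acly and Scd2 followed between 6.67 and 4.11 FPKM, and each overlapped its neighbour in that order. Fasn, at 2.13 ± 0.941, and Elovl6, at 0.253 ± 0.217, came last and stood apart. In WT muscle Acacb (28.1 ± 5.75 FPKM) and Scd1 (18.8 ± 1.65) again led, here without overlap. Mlxipl came next at 8.25 ± 1.82 FPKM in WT, where it overlapped Srebf1, and Acaca stood below Scd2 at 4.06 ± 0.261. By mean FPKM over the 6 libraries Acacb was at or above 92.5%, Acaca at or above 75.7% and Fasn at or above 63.3% of all listed genes.

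Acaca encodes acetyl-CoA carboxylase 1, the cytosolic enzyme that makes malonyl-CoA for fatty acid synthesis. Its level was 8.05, 5.82 and 6.15 FPKM in KO libraries, against 4.21, 4.2 and 3.76 FPKM in WT libraries. Every KO library stood above every WT library, and KO replicate 1 was the highest. The mean was 6.67 ± 1.2 FPKM in KO and 4.06 ± 0.261 FPKM in WT (SD, n = 3 each), a 1.64-fold difference. The log2 fold change of 0.59 ± 0.14 (interval 0.26 to 0.92) did not pass limma (p = 0.00358, adjusted p = 0.0689), while the authors' deposited table gave a q-value of 0.00119. As in any bulk tissue, more cells of a type that expresses a gene and more RNA of it per cell cannot be told apart. Acaca overlaps Tada2a in RefSeq, and since the strand setting of the counting is not given, reads of that stretch cannot be assigned with certainty. Tada2a was at 7.45, 9.32 and 6.31 FPKM in KO libraries, against 7.34, 4.81 and 4.9 FPKM in WT libraries. Its groups overlapped only in that KO replicate 3 lay below WT replicate 1, so it too tended to be higher in KO. The part of Tada2a reads in the level of Acaca was not tested.

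Acacb encodes acetyl-CoA carboxylase 2, the isozyme at the mitochondrial surface. It was at 22.3, 28.5 and 29.6 FPKM in KO libraries, against 24.8, 24.8 and 34.8 FPKM in WT libraries. The groups overlapped, the lowest library being KO and the highest WT. The log2 fold change was -0.06 ± 0.17 (interval -0.45 to 0.34, limma adjusted p = 0.89, and q = 0.858 in the authors' deposited table). Within a library, the ratio of Acaca to Acacb was 0.36, 0.204 and 0.208 in KO, against 0.17, 0.169 and 0.108 in WT. All KO ratios were above all WT ratios, with a difference of 0.77 ± 0.35 in log2, or 0.50 without KO replicate 1. The exact permutation test (two-sided) gave p = 0.10, the smallest that 3 against 3 libraries allow, and 0.25 adjusted over the 5 pairs of members compared.

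Fasn encodes fatty acid synthase, which builds palmitate. It was at 3.22, 1.65 and 1.53 FPKM in KO libraries, against 1.06, 1.51 and 2.66 FPKM in WT libraries. The spread within each group was larger than the gap between them: KO replicate 1 was the highest library and WT replicate 1 the lowest. The log2 fold change was 0.19 ± 0.28 (interval -0.46 to 0.84, limma adjusted p = 0.76, and q = 0.421 in the authors' deposited table), and it was -0.04 without KO replicate 1. The ratio of Fasn to Acaca overlapped between the groups, at 0.4, 0.283 and 0.248 in KO and 0.252, 0.36 and 0.707 in WT (log2 difference -0.40 ± 0.48, exact permutation p = 0.60, adjusted p = 0.6). Acly encodes ATP citrate lyase, which supplies cytosolic acetyl-CoA. It was at 4.82, 3.56 and 5.27 FPKM in KO libraries, against 3.66, 4.18 and 3.98 FPKM in WT libraries. KO replicate 2 lay below all WT libraries and the other KO libraries above them, with a log2 fold change of 0.16 ± 0.15 (interval -0.19 to 0.51, limma adjusted p = 0.62, and q = 0.601 in the authors' deposited table).

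**Figure D2:**
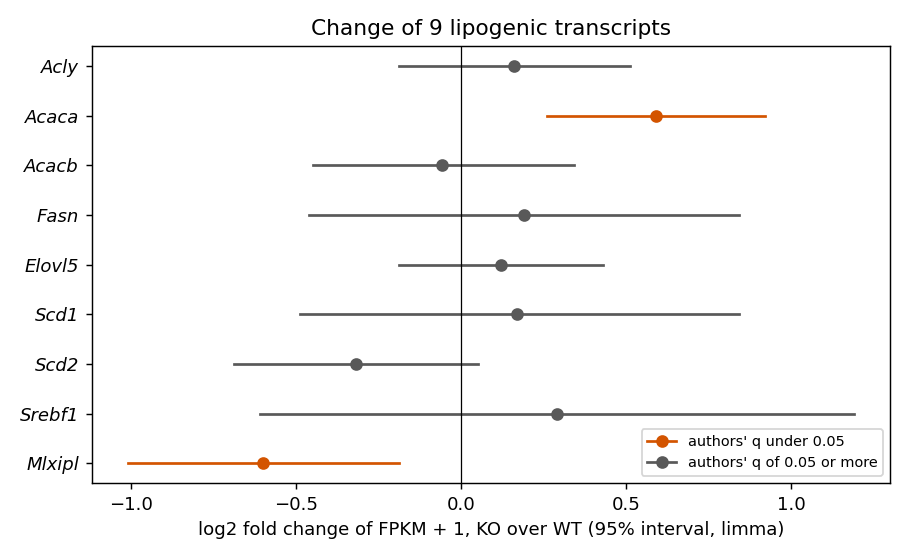
Log2 fold change of FPKM + 1, KO over WT, for the 9 members in the limma fit, with 95% intervals. Every interval except those of Acaca (0.26 to 0.92) and Mlxipl (-1.01 to -0.19) includes 0, and no member passed limma's adjusted threshold.

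RefSeq promoter windows are shown for Acaca, with a call in the authors' deposited table, and for Fasn, a textbook SREBP-1c target with overlapping groups (GRCm38.p6, 250 bases before to 50 after the annotated start, read along the gene). Letters searched on both strands were CACGTG (the E-box bound by ChREBP, SREBP and USF proteins), TCACNCCAC (an SREBP element), CCAAT (the NF-Y box), AGGTCA (a single nuclear receptor motif) and the liver X receptor element, a direct repeat of that motif spaced by 4 bases. Capitals mark matches. The Acaca window (chr11:84195188-84195487, plus strand) held no match and is 39.7% G and C. Its annotated start follows a stretch rich in c and t that ends in ag, as introns end, and atg comes within the next 50 bases. That start may thus be an exon boundary and the window may not hold the promoter, so no comparison with Fasn is drawn. The Fasn window (chr11:120824498-120824797, minus strand, 69.3% G and C) held 3 NF-Y boxes, of which neighbours on opposite strands overlap in CCAATTGG.
Acaca: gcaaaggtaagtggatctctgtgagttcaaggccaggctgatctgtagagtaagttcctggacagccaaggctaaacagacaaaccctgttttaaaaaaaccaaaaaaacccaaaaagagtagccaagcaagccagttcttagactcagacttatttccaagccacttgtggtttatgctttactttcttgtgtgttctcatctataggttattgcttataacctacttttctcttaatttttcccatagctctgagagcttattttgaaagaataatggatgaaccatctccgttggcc
Fasn: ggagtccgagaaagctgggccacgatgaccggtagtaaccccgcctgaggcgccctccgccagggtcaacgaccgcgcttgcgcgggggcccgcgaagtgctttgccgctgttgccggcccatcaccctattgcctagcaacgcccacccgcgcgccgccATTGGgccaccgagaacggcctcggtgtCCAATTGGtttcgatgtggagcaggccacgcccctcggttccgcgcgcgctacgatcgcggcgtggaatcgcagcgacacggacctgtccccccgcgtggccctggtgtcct

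Scd1 and Scd2 encode stearoyl-CoA desaturases, which put the double bond into palmitate and stearate, Scd1 being the main form of liver and fat and Scd2 of brain and embryonic tissues. Scd1 was at 34.9, 19.1 and 14.4 FPKM in KO libraries, against 20.5, 18.7 and 17.3 FPKM in WT libraries. KO replicate 1 was the highest of all and KO replicate 3 the lowest, so the WT range lay inside the KO range. The log2 fold change was 0.17 ± 0.28 (interval -0.49 to 0.84, limma adjusted p = 0.794, and q = 0.294 in the authors' deposited table), and it was -0.17 without KO replicate 1. Scd2 was at 5.01, 3.83 and 3.51 FPKM in KO libraries, against 4.67, 5.22 and 6.21 FPKM in WT libraries. All KO libraries were below the WT mean of 5.37 ± 0.78 FPKM, but KO replicate 1 was above WT replicate 1. The log2 fold change was -0.32 ± 0.16 (interval -0.69 to 0.05, limma adjusted p = 0.315, and q = 0.178 in the authors' deposited table). The ratio of Scd1 to Scd2 was 6.97, 4.98 and 4.11 in KO, against 4.4, 3.58 and 2.78 in WT, and the groups overlapped (log2 difference 0.57 ± 0.29, exact permutation p = 0.20, adjusted p = 0.333, and 0.36 in log2 without KO replicate 1). These paralogs share stretches of coding sequence, so how the authors' counting split shared reads is uncertain for both.

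KO replicate 1, the highest library in Scd1 and Fasn, was the highest KO library in 9 of the 12 adipocyte markers detected in KO muscle and in 6 of the 10 members. The share of all genes for which it was the highest KO library was not taken, so these counts have no background beside them. Lipe and Cidea were highest in KO replicate 2 (Lipe at 4.3, 6.61 and 5.32 FPKM in KO libraries). Adig was highest in KO replicate 3 (3.45, 2.74 and 9.03 FPKM in KO libraries). The 3 markers that follow were chosen after their values were seen, and each was highest in KO replicate 1 among KO libraries. The adipokine gene Adipoq was at 6.62, 2.44 and 1.62 FPKM in KO libraries, against 3.9, 5.63 and 2.45 FPKM in WT libraries. Cfd, adipsin, was at 19.7, 7.26 and 3.32 FPKM in KO, against 10, 20.5 and 16.4 FPKM in WT, and the lipid droplet gene Cidec at 2.59, 0.256 and 0.95 FPKM in KO, against 0.64, 1.02 and 1.36 FPKM in WT. Among WT libraries Cidec and Fasn were highest in replicate 3, Adipoq and Cfd in replicate 2 and Scd1 in replicate 1. Over the whole marker list, limma called 0 of 9 tested genes (1 at an unadjusted p under 0.05) and 0 of 8 were called in the authors' deposited table. The 13 listed markers summed to 1740 to 2129 FPKM in KO and 1702 to 1790 FPKM in WT, mostly from Car3 and Fabp4, which muscle fibres and capillaries also express, and Ucp1 was listed at 0 in every library. The part of adipocyte RNA in the levels of Scd1 and Fasn was not tested.

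**Figure D3:**
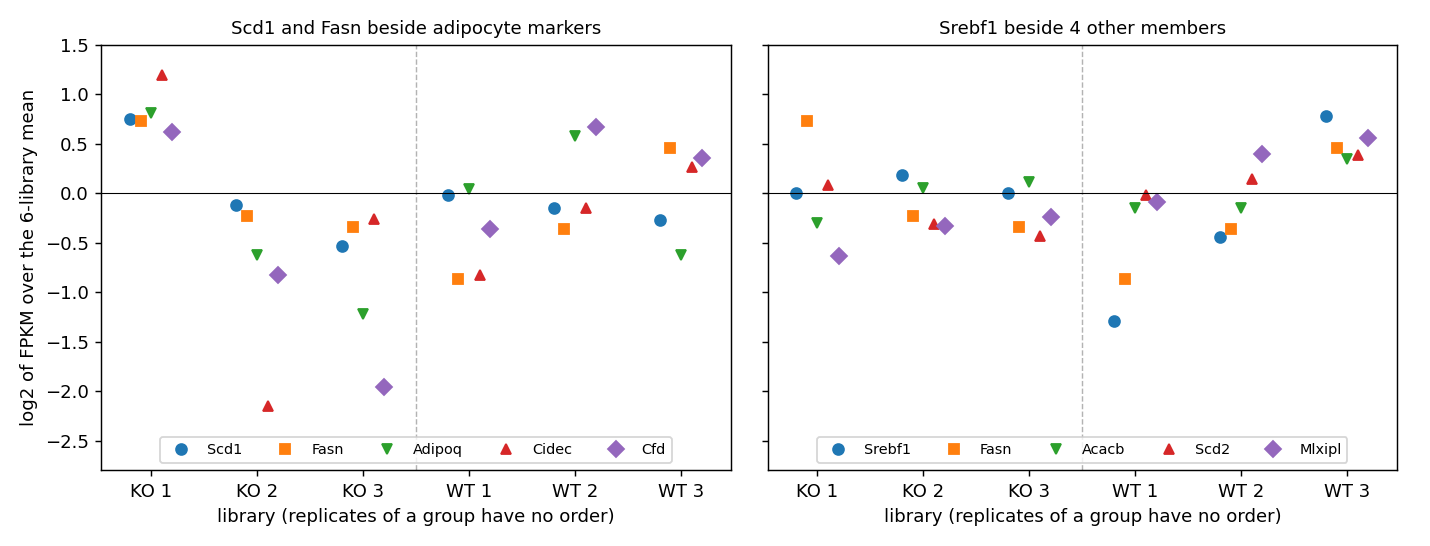
Log2 of FPKM over the mean of the 6 libraries, for Scd1 and Fasn with 3 adipocyte markers (left) and for Srebf1 with 4 other members (right), KO libraries left of WT libraries. KO replicate 1 is the highest KO library for all 5 genes on the left (Scd1 at 34.9 FPKM, Adipoq at 6.62 FPKM), and Srebf1 spans 2.47 to 10.4 FPKM among WT libraries on the right.

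Elovl5 and Elovl6 encode elongases, Elovl6 of the saturated and monounsaturated products of de novo synthesis and Elovl5 of polyunsaturated fatty acids. Elovl5 was at 7.03, 5.28 and 6.33 FPKM in KO libraries, against 6.19, 5.43 and 5.21 FPKM in WT libraries. The groups overlapped, and the log2 fold change was 0.12 ± 0.13 (interval -0.19 to 0.43, limma adjusted p = 0.671, and q = 0.756 in the authors' deposited table). Elovl6 was at 0.503, 0.133 and 0.123 FPKM in KO libraries, against 0.471, 0.133 and 0.271 FPKM in WT libraries. It was the lowest member in both groups, and its p-value in the authors' deposited table is 1. The ratio of Elovl6 to Elovl5 overlapped (log2 difference -0.49 ± 0.75, or -1.05 to -0.11 with 1 library left out, exact permutation p = 0.60, adjusted p = 0.6).

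**Figure D4:**
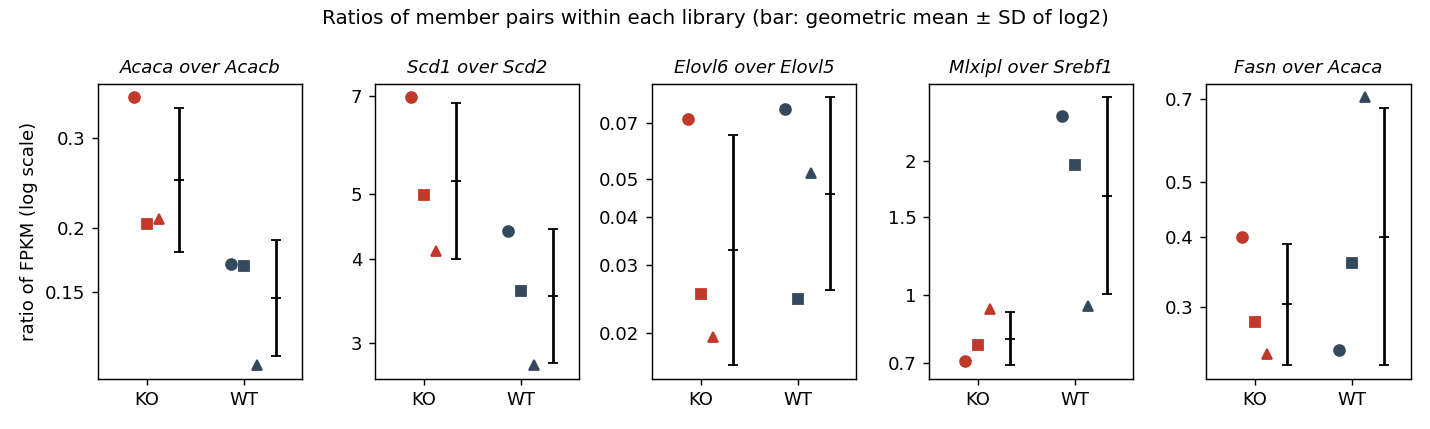
Ratios of FPKM between members of 5 pairs within each library on log axes, KO left of WT, with bars for the geometric mean ± SD of log2 (n = 3). Acaca over Acacb is higher in every KO library (0.204 to 0.36 against 0.108 to 0.17) and Mlxipl over Srebf1 lower (0.707 to 0.926 against 0.944 to 2.53), and the other 3 pairs overlap.

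How far counting alone limits these genes can be read from the steps in which FPKM values fall. For 8 members (not Acly and Srebf1) the 6 values were whole multiples of 1 step once depth was allowed for, within 0.01 of a step, as for 67.4% of all tested genes. If 1 step is 1 fragment, Elovl6 rests on 12, 4 and 3 fragments in KO libraries, against 17, 4 and 10 in WT libraries. Its SD was 85.5% of the mean among KO libraries and 58.2% among WT libraries, above counting errors of 28.9% to 57.7% in KO and 24.3% to 50% in WT. Scd1 rests on 671, 462 and 283 steps in KO libraries and its counting error there would be 3.86% to 5.94% of the value, far below the SD between KO libraries of 47.1% of the mean. Fasn, on 130, 84 and 63 steps in KO, likewise had a KO spread (44.2%) above its counting error (8.77% to 12.6%). Elovl5 spread by 14.2% among KO libraries, close to its counting error of 11.5% to 12%. Acaca varied among WT libraries by 6.42%, about its counting error there (6.54% to 7.18%). The counting errors assume independent fragments, and no count test was run on these steps.

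Among the transcription factors, Mlxipl was lower in KO muscle by the authors' deposited table while Srebf1 was not called. Mlxipl encodes ChREBP, the glucose-responsive activator of lipogenic and glycolytic genes. It was at 4.27, 5.28 and 5.63 FPKM in KO libraries, against 6.24, 8.73 and 9.78 FPKM in WT libraries. Every KO library was below every WT library. The mean was 5.06 ± 0.704 FPKM in KO and 8.25 ± 1.82 FPKM in WT (SD, n = 3 each), 1.63-fold higher in WT. The log2 fold change of -0.60 ± 0.18 (interval -1.01 to -0.19) did not pass limma (p = 0.0107, adjusted p = 0.119), while the authors' deposited table gave a q-value of 0.00668. Over the 6 libraries the tested genes most like Mlxipl, by root-mean-square difference of centred log2(FPKM + 1), were Kif3c (0.064), 1700001O22Rik (0.065) and Bcl6 (0.067), of which the repressor gene Bcl6 was at 12.8, 14.9 and 15 FPKM in KO libraries, against 15.3, 22.2 and 25.1 FPKM in WT libraries.

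Srebf1, which encodes SREBP-1, had close means in both groups and spread widely among WT libraries. It was at 6.04, 6.87 and 6.07 FPKM in KO libraries, against 2.47, 4.46 and 10.4 FPKM in WT libraries. The KO libraries lay within a factor of 1.14 of each other and between the WT extremes, which were 4.19-fold apart. On the log2(FPKM + 1) scale the WT range was at or above that of 98.8% of tested genes and the KO range at or above that of 21.2%. These values describe the spread, which was not tested, and the log2 fold change was 0.29 ± 0.38 (interval -0.61 to 1.19, limma adjusted p = 0.736, and q = 0.786 in the authors' deposited table) or -0.11 without WT replicate 1. The tested genes most like Srebf1 were Uqcrq (0.067), Trim54 (0.072) and Dohh (0.082). Uqcrq, a subunit of respiratory complex III, was at 177, 182 and 171 FPKM in KO libraries, against 88.7, 146 and 290 FPKM in WT libraries. Its order of WT libraries was that of Srebf1, which follows from picking it by likeness over these same libraries. Among the members Fasn, Scd2 and Mlxipl also had this order of WT libraries. Genes most like Scd1 were Med10 (0.104), Alkbh8 (0.111) and Nup37 (0.120). Srebf1 overlaps Rai1 in RefSeq, which was low (0.974, 1.19 and 1.26 FPKM in KO, against 0.896, 1.19 and 2.3 FPKM in WT).

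The ratio of Mlxipl to Srebf1 was 0.707, 0.769 and 0.926 in KO libraries, against 2.53, 1.96 and 0.944 in WT libraries. All KO ratios were below all WT ratios, although WT replicate 3 came close to KO replicate 3. The log2 difference was -1.07 ± 0.44 (exact permutation p = 0.10, adjusted p = 0.25), and it was -1.48 without WT replicate 3 and -0.77 without WT replicate 1.

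Promoter windows of both factors show where the searched letters lie (same table and capitals as above). RefSeq gives Mlxipl 2 starts. The window at chr5:135106641-135106940 (plus strand) held an SREBP element, which 1.24% of all 32851 promoter windows hold. That at chr5:135089640-135089939 (plus strand) held an E-box at -98 from the annotated start, found in 7.15% of all windows, and an NF-Y box, found in 37.4%. Of 3 starts of Srebf1, the window at chr11:60210422-60210721 (minus strand), shown here, held 1 NF-Y box, as did 1 of the others. FPKM per gene does not separate starts.
Mlxipl, SREBP element window: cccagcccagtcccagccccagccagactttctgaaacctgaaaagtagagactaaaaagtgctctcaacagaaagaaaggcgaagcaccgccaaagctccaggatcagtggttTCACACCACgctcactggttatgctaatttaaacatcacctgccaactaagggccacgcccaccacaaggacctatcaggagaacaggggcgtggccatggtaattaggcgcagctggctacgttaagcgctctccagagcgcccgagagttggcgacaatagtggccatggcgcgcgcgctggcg
Mlxipl, E-box window: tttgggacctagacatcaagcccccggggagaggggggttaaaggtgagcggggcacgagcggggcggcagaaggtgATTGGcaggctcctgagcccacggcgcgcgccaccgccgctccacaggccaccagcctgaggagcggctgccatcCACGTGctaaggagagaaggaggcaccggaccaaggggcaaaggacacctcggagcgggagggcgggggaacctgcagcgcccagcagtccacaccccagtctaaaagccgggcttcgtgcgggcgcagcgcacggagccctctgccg
Srebf1: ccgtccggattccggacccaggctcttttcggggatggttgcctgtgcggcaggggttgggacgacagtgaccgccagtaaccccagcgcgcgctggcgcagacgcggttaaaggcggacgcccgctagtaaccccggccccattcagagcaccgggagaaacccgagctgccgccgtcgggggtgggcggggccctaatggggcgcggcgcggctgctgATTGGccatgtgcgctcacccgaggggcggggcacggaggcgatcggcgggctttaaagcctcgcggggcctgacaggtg
Over the 11 windows of the 8 members with RefSeq promoter windows (all but Scd1 and Scd2), 7 held an NF-Y box, 3 a single nuclear receptor motif (16.3% of all windows), 2 an E-box (the other in Elovl5, at -161 from the start), 1 an SREBP element and 0 the liver X receptor element (0.0152% of all windows). An annotated start need not be a start of transcription, as may hold for Acaca. A match is a run of letters and not a measured binding site.

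In a list of genes for acetyl-CoA and NADPH supply or for control of acetyl-CoA carboxylase, several were higher in KO muscle. Of those, Me2 and Acss1 encode mitochondrial enzymes, while Slc25a1, G6pdx, Pgd and Idh1 were not called by either test. The list was chosen with earlier results of these data known, so its shares describe it and are no test of it. Of its 11 genes limma called 2 as higher and 0 as lower, against 2.3% and 1.34% of all tested genes. Before adjustment 6 of 11 passed, against 19.7% of all tested genes. The authors' deposited table called 6 of 9 tested as higher and 0 as lower, against 5.9% and 4.94%. The median limma log2 fold change of all 11 genes was 0.44. The limma calls were both malic enzymes, which turn malate into pyruvate. Me1, the cytosolic form, which makes NADPH, rose 1.5-fold, to 75, 74.1 and 66.4 FPKM in KO libraries, against 44.4, 49.9 and 49.4 FPKM in WT libraries (log2 fold change 0.57 ± 0.10, limma adjusted p = 0.0272). Me2, a mitochondrial form that chiefly makes NADH, rose 1.97-fold, to 3.01, 2.98 and 2.94 FPKM in KO, against 1.35, 1.45 and 1.74 FPKM in WT (0.67 ± 0.13, limma adjusted p = 0.0367). For both genes the groups did not overlap. Both calls ended when any 1 of the 6 libraries was left out, with adjusted p of 0.0538 to 0.105 for Me1 and 0.056 to 0.144 for Me2, and when libraries were scaled to the same FPKM sum (0.056 and 0.0512). If 1 step is 1 fragment, Me2 rests on 28, 35 and 28 fragments in KO libraries, against 19, 17 and 25 in WT libraries. Its SD among KO libraries, 1.02% of the mean, is below the counting error of 16.9% to 18.9%, and the limma test uses that spread. Me1 and Acss2, below, were picked for naming after their values were seen.

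Regulators of acetyl-CoA carboxylase stood beside Acaca. Thrsp, which encodes the lipogenic protein Spot 14, was at 13.1, 23.6 and 25.2 FPKM in KO libraries, against 10.2, 8.58 and 8.69 FPKM in WT libraries. No libraries overlapped, KO replicate 1 being the lowest KO library here (2.25-fold, log2 fold change 1.04 ± 0.23, limma adjusted p = 0.0582, q = 0.00119 in the authors' deposited table). With 1 library left out the limma adjusted p of Thrsp was 0.0243 to 0.199, under 0.05 only without KO replicate 1. It was 0.0482 over genes with a mean of at least 5 FPKM, 0.0499 over genes the authors tested and 0.0525 to 0.121 under the other alternatives. Mid1ip1, a paralog of Thrsp whose protein makes the carboxylase polymerise, was at 17.5, 32.9 and 31.2 FPKM in KO, against 8.54, 8.3 and 19.5 FPKM in WT. WT replicate 3 overlapped KO replicate 1 (2.25-fold, 1.16 ± 0.36, limma adjusted p = 0.132, q = 0.00119 in the authors' deposited table). The acetyl-CoA synthetase genes were higher too in the authors' deposited table, Acss1 (mitochondrial) by 1.83-fold with q = 0.00119 and Acss2 (cytosolic) by 1.41-fold with q = 0.0252. By limma neither passed (adjusted p = 0.0947 for Acss1 and 0.221 for Acss2). With 1 library left out the limma adjusted p of Acss1 was 0.0302 to 0.262, under 0.05 only without WT replicate 1. The remaining genes were not called by either test: the citrate carrier gene Slc25a1, G6pdx and Pgd of the pentose phosphate pathway, the NADP-dependent isocitrate dehydrogenase gene Idh1, and Mlycd, which breaks malonyl-CoA down (log2 fold changes -0.03 to 0.23).

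**Figure D5:**
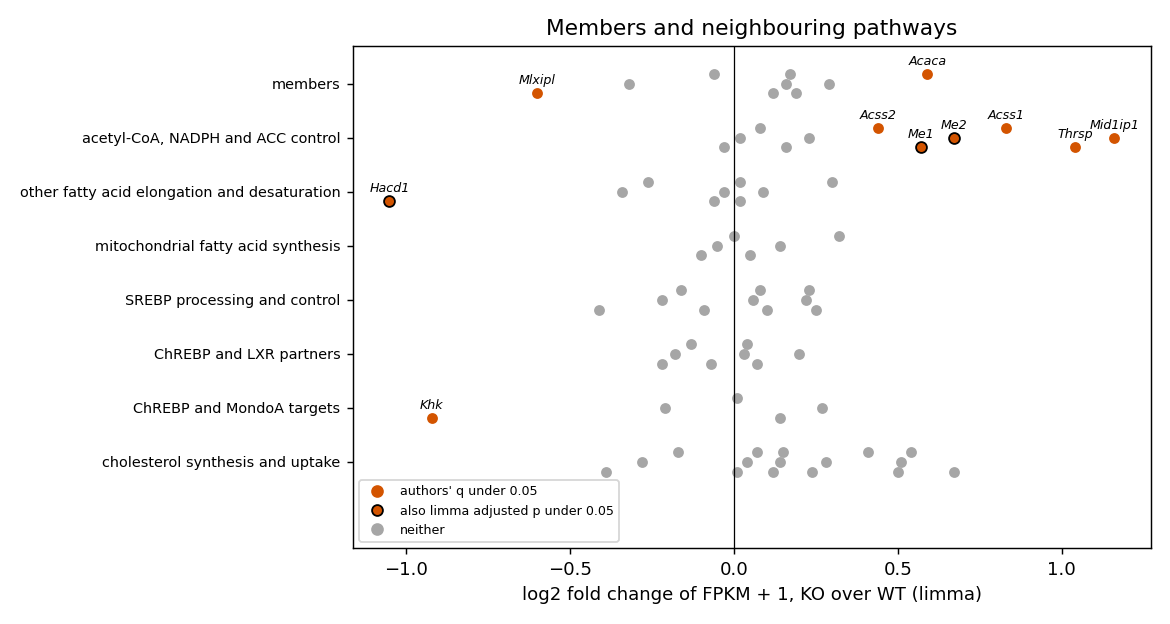
Log2 fold change of FPKM + 1, KO over WT, for the members and for genes of 7 neighbouring lists, 1 point for each gene of the limma fit that is reported here. Genes called in the authors' deposited table are named, and black rings mark those also called by limma: Me1 (0.57), Me2 (0.67) and Hacd1 (-1.05).

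Other steps of fatty acid elongation and desaturation held 1 call among 9 genes tested by limma, with a median of -0.03. It called 0 as higher and 1 as lower, against 2.3% and 1.34% of all tested genes. Before adjustment 2 of the 9 passed, against 19.7% of all tested genes. Hacd1, the muscle-rich dehydratase of the elongation cycle for very long chains, fell to 39.1, 30.5 and 31.8 FPKM in KO libraries, against 67, 75.5 and 69.1 FPKM in WT libraries. The groups were far apart, 2.09-fold higher in WT (log2 fold change -1.05 ± 0.12, limma adjusted p = 0.0127, q = 0.00119 in the authors' deposited table). The limma call ended without WT replicate 2 (adjusted p = 0.0805) and without KO replicate 3 (0.0622). Tecr, the reductase of the same cycle, was at 84.5 ± 6.58 FPKM in KO and 108 ± 17.8 FPKM in WT. It passed limma only before adjustment (p = 0.046, adjusted p = 0.244) and was not called in the authors' deposited table (q = 0.127). Of 6 mitochondrial fatty acid synthesis genes limma called 0 (0 before adjustment), as did the authors' deposited table. The 2 most abundant of them were Ndufab1, the acyl carrier protein, at 95.3 ± 15.6 FPKM in KO and 85.7 ± 4.22 FPKM in WT, and Cbr4, at 30.3 ± 2.03 FPKM in KO and 31.4 ± 0.943 FPKM in WT.

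Transcripts of the proteins that govern SREBP and ChREBP were not called. Among 10 tested genes of SREBP processing and control limma called 0 (2 at an unadjusted p under 0.05), and 0 of 8 were called in the authors' deposited table. Insig2, which holds SREBP in the endoplasmic reticulum, was at 13.5, 16.1 and 13.4 FPKM in KO libraries, against 21.5, 20.7 and 16.2 FPKM in WT libraries, without overlap (-0.41 ± 0.14 in log2). Lpin1, a phosphatidate phosphatase that restrains nuclear SREBP, was at 98.3, 102 and 103 FPKM in KO, against 89.3, 80.2 and 85.2 FPKM in WT, also without overlap (0.25 ± 0.09). In this list 3 of the 10 tested genes had no overlap, near the 26.1% of all tested genes. Among 8 tested partners of ChREBP and of the liver X receptor limma called 0 (0 before adjustment), as did the authors' deposited table. Their most abundant were Rxra, at 30.2 ± 3.18 FPKM in KO and 29 ± 6.28 FPKM in WT, and Usf2, at 12.7 ± 1.06 FPKM in KO and 13.5 ± 2.47 FPKM in WT.

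Of the targets of ChREBP outside lipogenesis, 1 was called, as lower in KO and in the authors' deposited table alone. Of 5 tested targets of ChREBP and its relative MondoA limma called 0 (1 at an unadjusted p under 0.05). Khk, ketohexokinase of fructose breakdown, was at 1.62, 2.69 and 1.14 FPKM in KO libraries, against 2.19, 5.87 and 5.34 FPKM in WT libraries. WT replicate 1 lay inside the KO range (2.46-fold higher in WT, limma adjusted p = 0.182, q = 0.00927 in the authors' deposited table). Txnip, the most abundant of these targets, was at 360, 151 and 194 FPKM in KO, against 225, 189 and 184 FPKM in WT, with KO replicate 1 again the highest. Of 17 tested cholesterol synthesis and uptake genes limma called 0 (3 at an unadjusted p under 0.05), with 13 above 0 and a median log2 fold change of 0.14.

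Markers of the other cell types in muscle were called by limma in no list. The authors' deposited table called fibroblast (3 of 7) and neutrophil genes (5 of 7) as lower in KO, against 4.94% of all genes it tested. By limma at an unadjusted p under 0.05 the counts were 1 of 7 for fibroblast, 0 of 7 for neutrophil, 0 of 8 for endothelial, 0 of 8 for macrophage and 0 of 4 for Schwann cell markers. The fibroblast markers summed to 439, 481 and 292 FPKM in KO libraries, against 616, 456 and 506 FPKM in WT libraries, overlapping through KO replicate 2. Neutrophil markers summed to 3.76 to 7.5 FPKM in KO and to 5.97, 566 and 10.1 FPKM in WT, so that WT replicate 2 stood apart. In that library Acaca (4.2 FPKM) and Mlxipl (8.73 FPKM) lay between the other WT libraries. The part of these cells in the members' levels was not tested.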

How the data were processed

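RNA-seq libraries of quadriceps were grouped and numbered by their labels. Per the submitters' processing notes, TopHat2 and Cuffdiff were used with mm9. Versions, annotation, strand setting, normalization and handling of shared reads were not given in the sources used here. In the deposited table FPKM are listed per library, and the authors' deposited columns hold each gene's p-value and q-value. Entries with a deposited p-value under 1 were taken as tested by the authors (9204).

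FPKM of genes with a mean of at least 1 over the 6 libraries (10501) were tested as log2(FPKM + 1) with limma 3.58.1 in R 4.3.3, with a mean-variance trend, both groups in 1 fit, no covariate and Benjamini-Hochberg adjustment. The script was tested on simulated data. Ratios between members of 5 pairs were compared with exact permutation tests (scipy 1.17.1). Alternatives changed the pseudocount, filter, scaling, trend, replicate block and libraries. In all 14 gene lists, named genes were the members, Hdac3, up to 4 called genes of a list by absolute log2 fold change and otherwise its 2 most abundant; the text leaves out some cell type markers that the rule gives, and others were named after their values were seen. Members and lists were chosen with earlier results of these data known. Likeness was taken for the 3 members with the largest SD. Depth came from whole-number ratios of genes under 0.3 FPKM (85.8% to 89% of ratios within 0.01 in log2, against 2.15% to 3.15% at shifted positions). Read totals are unknown, so no counting interval is given for FPKM. Promoter windows are 300 bases around RefSeq starts on GRCm38.p6, whose coordinates are not those of mm9. The HDAC3 peak lists were not used here, and 1 gene of the cholesterol list, counted in its list, is not reported here. Figures were drawn with matplotlib 3.10.9.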

Additional observations from a re-analysis of the deposited data

How the results depend on the processing

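Limma called 383 genes (242 higher, 141 lower in KO), and 309 to 434 under other pseudocounts, scalings, a higher or the authors' filter and no trend. It called 247 with no filter, 36 with a replicate block and 19 to 208 with 1 library left out (19 without WT replicate 2), while the authors' deposited table called 998. The labels state no pairing of libraries by replicate number. Deviations of same-numbered libraries correlated at 0.037 to 0.052, each best with its own number, and such small values cannot show whether the libraries were paired. Limma called 0 members under every alternative and 2 were called in the authors' deposited table. With 1 library left out the log2 fold change was -0.14 to 0.10 for Acacb, -0.04 to 0.42 for Fasn, -0.17 to 0.44 for Scd1, -0.11 to 0.75 for Srebf1, -0.03 to 0.24 for Rxra, -0.18 to 0.06 for Usf2 and, for the ratio of Fasn to Acaca, -0.73 to 0.01; their signs thus turned. It stayed at 0.47 to 0.67 for Acaca and -0.76 to -0.48 for Mlxipl. The replicate block ended the limma calls of Hacd1, Me1 and Me2 (adjusted p = 0.0628, 0.0858 and 0.106), and no filter that of Me2 (0.0714). The cause was not tested. Distances of HDAC3 peaks from members were planned and not run.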

Other observations

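Me2 agreed more closely among KO libraries than counting would give on average: its KO levels of 3.01, 2.98 and 2.94 FPKM had an SD of 1.02% of the mean, whereas the steps in its values (28, 35 and 28 in KO, against 19, 17 and 25 in WT) would carry a counting error of 16.9% to 18.9% each if 1 step is 1 fragment. Its WT libraries, with an SD of 13.3% of the mean and a counting error of 20% to 24.3%, did so less. Hmgcs1, which cholesterol-making cells use, was listed at 0 in 5 of the 6 libraries (0.114 FPKM in WT replicate 2), so entries of 0 are given here as listed.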
